A study of Mus musculus with 8 samples.

Results

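Genes of the Hedgehog and FGF receptor pathways were followed through the cells of the mouse dentate gyrus after injury. They were the Hedgehog genes Ptch1, Smo, Gli1, Gli2 and Gli3, the FGF receptor genes Fgfr1, Fgfr2 and Fgfr3, and the FGF ligand genes Fgf1 and Fgf2. These 10 of the 31053 genes in the count tables were taken by name, with earlier results of these data known, and all 10 had counts. The cells came from Nestin-GFP mice aged 8 weeks, which carry GFP under control of the promoter of nestin, an intermediate filament of neural progenitors. Control mice received a sham craniotomy and TBI mice a unilateral controlled cortical impact, a model of traumatic brain injury. On day 15 the dentate gyri of the operated side were dissociated, and GFP-positive cells were sorted and run as single-cell RNA libraries. The animals of a condition were pooled, so there was 1 Control and 1 TBI library, although the labels list 4 animals for each, and the study's methods give other numbers of pooled animals. Both groups share the transgene and the sort, which set which cells could enter, and differ in the injury and in the pool of animals.

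Hedgehog ligands bind the receptor Patched, which otherwise keeps the membrane protein Smoothened (Smo) silent, and active Smo changes the processing of the Gli transcription factors at the primary cilium. Ptch1 and Gli1 are also textbook target genes of the pathway, and its activity maintains neural stem cells in the adult dentate gyrus. FGF ligands bind receptor tyrosine kinases that signal through adaptor proteins to the MAP kinase cascade, and FGF signalling is known for its part in progenitor division, astrocyte maintenance and myelin formation.

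Unique molecular identifiers (UMIs), tags that mark single captured RNA molecules, were summed over the cells of a type in each library and divided by the type's total without Malat1, a nuclear RNA. Levels are given as counts per 1000000 of that total (CPM), with an exact Poisson 95% interval, and TBI to Control ratios with an exact conditional binomial 95% interval. All intervals cover counting error only, and with 1 pooled library per condition no test of the injury was possible. The 8085 cells that passed a low filter (3049 Control and 5036 TBI, with medians of 6928 and 5663 UMIs) formed 41 clusters, built without any of the pathway genes. Marker genes named 7572 of these cells as 14 types, and 513 cells stayed unnamed. Type names stand for resemblance to markers, so that "astrocytes" are astrocyte-like cells. The condition of each table was read from barcodes listed by condition in the study's material (356 of 356 Control and 320 of 320 TBI barcodes lay in the matching table), and 3 barcodes occurred in both libraries. Counts come from the 3′ end of transcripts, so levels were compared between cell types and not between genes. Cells outside the neural lineage made up part of the libraries. Nes, whose promoter drives the GFP of the sort, was highest in endothelial cells (448 CPM) and pericytes (284 CPM). It was at 2.30 CPM in the 1677 oligodendrocytes and 2.47 CPM in the 1386 astrocytes. The link between Nes RNA and the cells that entered was not tested.

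Upstream sequences of 3 members are shown because these genes had their highest levels in different cell types, Ptch1 and Smo in astroglia and Fgfr2 in oligodendrocytes. They are the 250 bases before a RefSeq transcript start in GRCm38.p6, printed 5′ to 3′ on the gene's strand in lower case. Capitals mark GC boxes (GGGCGG or, on the other strand, CCGCCC). The windows lie at chr13:63565736-63565985 (minus strand) for Ptch1, chr6:29735247-29735496 (plus strand) for Smo and chr7:130266809-130267058 (minus strand) for Fgfr2, none of them in a GENCODE exon. The Ptch1 and Fgfr2 windows lie inside the annotated genes, which extend further upstream.
Ptch1: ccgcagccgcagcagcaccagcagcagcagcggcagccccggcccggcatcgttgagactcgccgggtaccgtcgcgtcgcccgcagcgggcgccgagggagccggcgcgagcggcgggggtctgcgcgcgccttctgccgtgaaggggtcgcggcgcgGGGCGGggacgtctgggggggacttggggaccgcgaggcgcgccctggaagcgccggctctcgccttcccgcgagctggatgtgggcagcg
Smo: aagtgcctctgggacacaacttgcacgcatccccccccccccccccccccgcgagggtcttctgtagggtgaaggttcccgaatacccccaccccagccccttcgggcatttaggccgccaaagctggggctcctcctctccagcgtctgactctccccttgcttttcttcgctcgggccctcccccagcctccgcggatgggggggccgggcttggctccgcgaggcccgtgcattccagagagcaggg
Fgfr2: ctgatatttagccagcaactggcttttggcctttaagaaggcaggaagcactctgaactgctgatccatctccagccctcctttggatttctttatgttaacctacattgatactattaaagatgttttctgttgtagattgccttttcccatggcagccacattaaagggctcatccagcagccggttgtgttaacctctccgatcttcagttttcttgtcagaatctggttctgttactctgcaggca
The Ptch1 window held 41 CpG dinucleotides at 78.4% GC, the Smo window 15 at 68.4%, and the Fgfr2 window 2 at 44% GC, against medians of 6 CpG and 52.4% GC over 32851 mouse promoter windows of this length. A GC box was found in 6 of the 8 windows that matched 7 of the members, and in 32.7% of all windows. The Gli binding sequence GACCACCCA (reverse TGGGTGGTC) was found in 0 of the 8 and in 0.225% of all, which says only that these letters are not in the windows. Gli1, Fgfr1 and Fgf1 were not matched.

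Of the 10 genes, 7 had their highest level in an astroglial type, astrocytes or stem-like astroglia, where 13.4% of 14120 measured genes did. The study lists Smo and Fgfr3 among the markers of some of its astrocytic clusters from the same cells. The count therefore describes the members and is not a test. The count was 7 in the Control library alone and 6 in the TBI library alone. Fgfr1 was highest in fibroblast-like cells, Fgfr2 in oligodendrocytes and Fgf1 in smooth muscle. Astroglia were 19.5% of the named cells and held 9.13% of their UMIs, but 87.9% of the UMIs of Fgfr3, 60.6% of those of Gli2, 60.4% of Gli1, 49.3% of Fgf2, 48.0% of Gli3, 31.9% of Ptch1, 27.1% of Fgfr1, 21.2% of Smo and 20.5% of Fgf1. Fgfr2 stood apart from the others, with 5.69% of its UMIs in astroglia. The 1386 astrocytes were defined by 9 markers such as Slc1a3, Aqp4 and Gja1, and the 90 stem-like astroglia by 8 markers such as Hopx, Frzb and Thrsp.

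**Figure D1:**
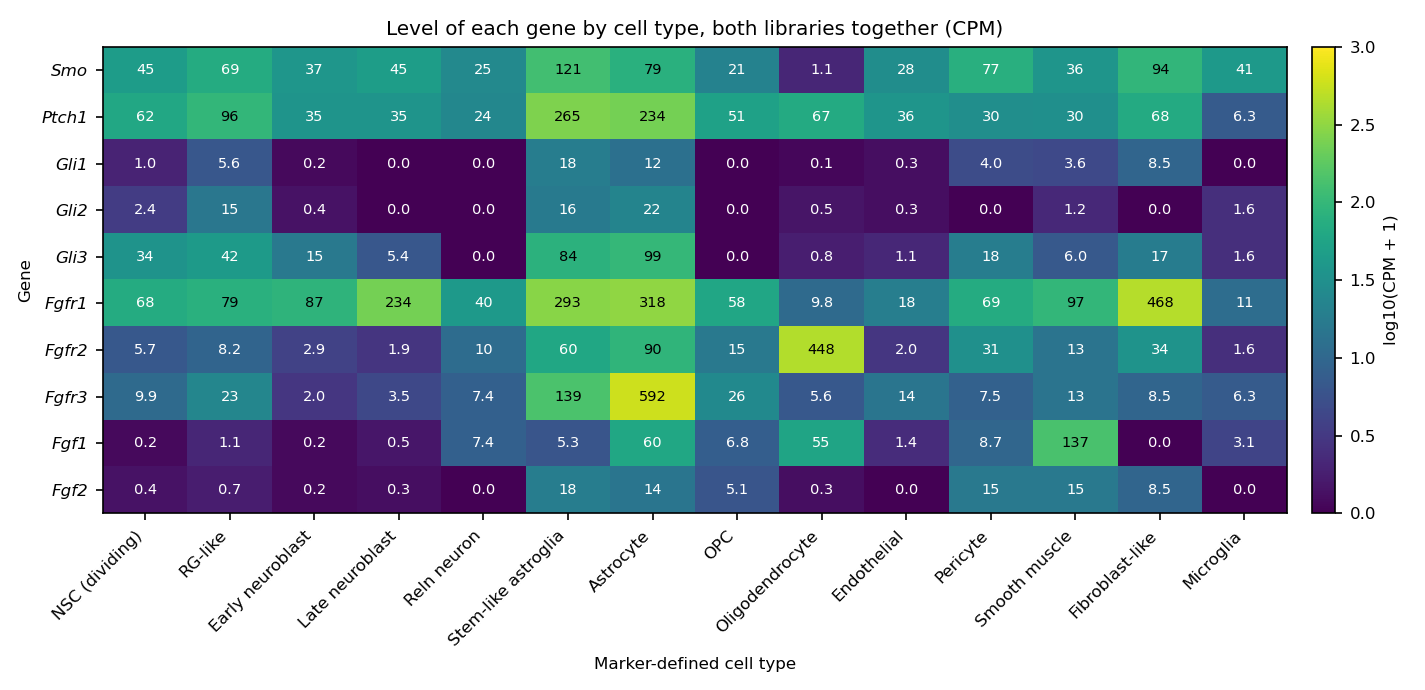
Level of each of the 10 genes (rows) in each of the 14 cell types (columns), both libraries together, in CPM as printed in the cells, with the colour giving log10(CPM + 1). Most rows are brightest in stem-like astroglia or astrocytes, while Fgfr2 is brightest in oligodendrocytes (448), Fgf1 in smooth muscle (137) and Fgfr1 in fibroblast-like cells (468).

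Ptch1 (chr13:63508328-63573598, minus strand, GRCm38 as for the other genes), the gene of the Hedgehog receptor, reached 265 CPM (224 to 311) in stem-like astroglia and 234 CPM (219 to 249) in astrocytes. By library, stem-like astroglia measured 292 CPM in Control and 200 in TBI, and astrocytes 234 and 233. The intervals of these types overlapped, and both libraries of astrocytes lay above both libraries of RG-like cells, the radial-glia-like progenitors, at 96.9 and 95 CPM. Further down, the level was 67.0 CPM in oligodendrocytes (68.5 and 66.0), 61.6 in dividing NSC (60.1 and 63.5), 35.2 in late neuroblasts and immature granule neurons (31.7 and 37.8) and 6.27 in microglia. No other neighbours in the order of the 14 types were apart in both their libraries and their intervals.

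Smo (chr6:29735503-29761365, plus strand), which encodes the signal-transducing membrane protein, had its highest level in stem-like astroglia as well, 117 CPM in Control and 129 in TBI, 121 together (94.2 to 153). Astrocytes followed the 31 fibroblast-like cells with 79.3 CPM (75.8 and 84.4), then pericytes with 76.8 (69.0 and 79.7) and RG-like cells with 68.7 (80.8 and 57.3). Smo was thus spread over glial, mural and progenitor types, and its 2 clear steps lay just below RG-like cells and just above oligodendrocytes. RG-like cells lay above late neuroblasts at 45.2 CPM (50.6 and 41.1), and oligodendrocytes were at the bottom with 1.12 CPM (0.638 to 1.81), 16 UMIs in 1677 cells. NSC lay between, with 49.8 CPM in Control and 38.0 in TBI.

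The Gli genes encode the transcription factors of the pathway, Gli2 mainly as an activator and Gli3 mainly as a repressor. Gli3 (chr13:15463235-15730026, plus strand) measured 98.8 CPM in astrocytes (104 in Control and 91.2 in TBI) and 84.2 in stem-like astroglia (90.0 and 70.6). Both lay above RG-like cells at 41.8 CPM (45.4 and 38.4), and the level was 34.1 in NSC (39.2 and 27.7), 15.4 in early neuroblasts and 5.44 in late neuroblasts. From astroglia through progenitors to neuroblasts the level of Gli3 was lower at each of these types, though RG-like cells and NSC were not apart beyond their counting error. Reln neurons and OPC, the oligodendrocyte precursors, had 0 UMIs.

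Gli2 (chr1:118834132-119053619, minus strand) was measured at 21.7 CPM in astrocytes (21.8 in Control and 21.6 in TBI), 15.8 in stem-like astroglia and 14.6 in RG-like cells (13.8 and 15.2). NSC lay below all 3 with 2.37 CPM. Late neuroblasts had 0 UMIs of Gli2, which allows a level of up to 0.302 CPM, and pericytes had 0, which allows up to 1.19. Gli2 was therefore detected in astroglia and RG-like cells and at or near 0 in neuroblasts and mural cells. Gli1 (chr10:127329882-127341974, minus strand), the target gene, was sparse, with 96 UMIs in all named cells. It measured 17.5 CPM in stem-like astroglia (10 UMIs, 8.41 to 32.3) and 11.9 in astrocytes (8.74 to 15.7), where 24 UMIs in Control and 24 in TBI gave 9.89 and 14.8 CPM. The level was 5.60 CPM in RG-like cells and 0.987 in NSC, and no neighbouring types of the Gli1 order were apart. Late neuroblasts had 0 UMIs here too.

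**Figure D2:**
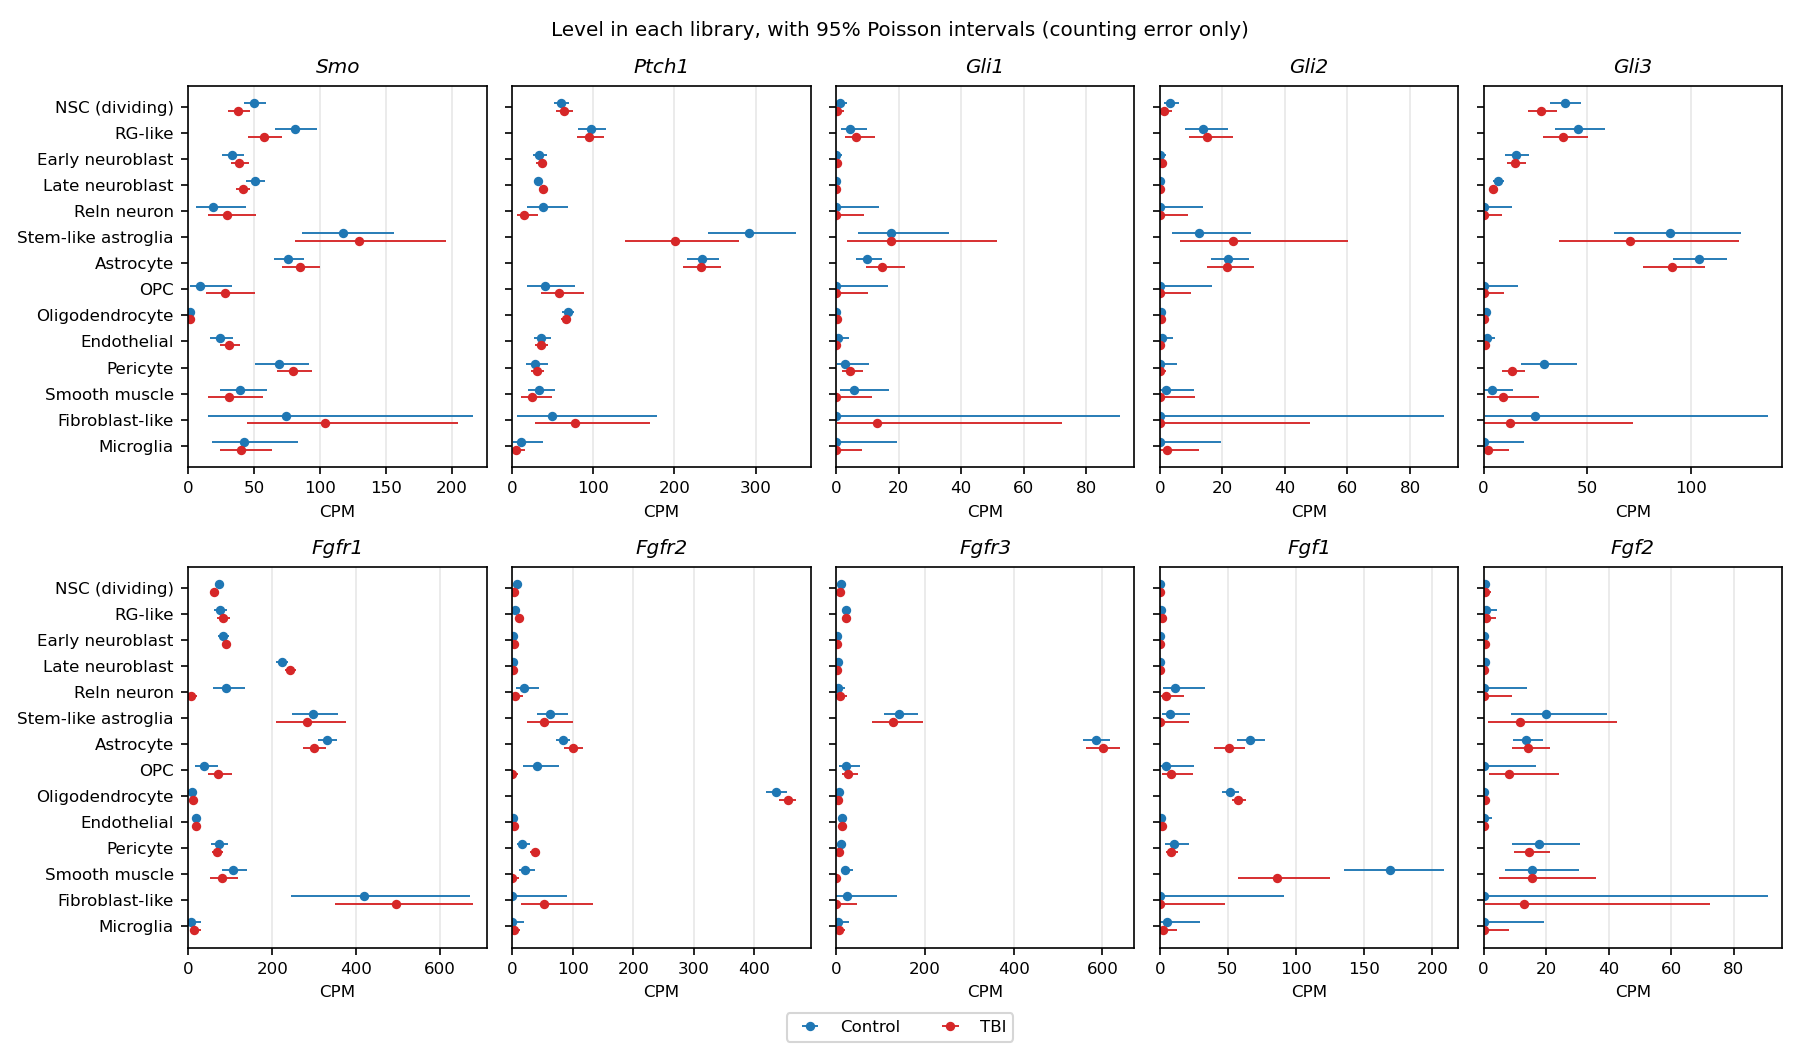
Level in CPM (horizontal axes, linear, with a range for each gene) in each of the cell types, Control in blue and TBI in red, with exact Poisson 95% intervals as bars. Both libraries lie close together in most types, and the types differ from each other far more, for example Fgfr3 at 586 and 601 CPM in astrocytes against 7.93 and 4.15 in oligodendrocytes.

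Among the FGF receptors, Fgfr3 (chr5:33721674-33737068, plus strand) had the largest share of its UMIs in astroglia. Its level was 592 CPM (568 to 616) in astrocytes, 586 in Control and 601 in TBI, and 139 CPM (110 to 173) in stem-like astroglia, 142 and 129. The 4.27-fold step between these types was larger than the counting error and held in both libraries, and stem-like astroglia again lay above the next type, OPC, at 25.7 CPM. RG-like cells measured 22.8 CPM (22.3 and 23.2), NSC 9.87 (11.3 and 8.04), late neuroblasts 3.53 and early neuroblasts 1.95. Among the other members with their highest level in an astroglial type, Smo, Ptch1, Gli1, Gli2, Gli3 and Fgf2 had overlapping intervals for their first and second types, so Fgfr3 alone was apart there.

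Fgfr2 (chr7:130162451-133123350, minus strand) had the opposite distribution within glia. Oligodendrocytes measured 448 CPM (437 to 459), 436 in Control and 455 in TBI, which was 4.95 times the level in astrocytes at 90.4 CPM (83.6 and 100). Stem-like astroglia had 59.6 CPM (62.5 and 53.0), while RG-like cells had 8.21, NSC 5.72, early neuroblasts 2.93 and late neuroblasts 1.91. Oligodendrocytes held 6422 of the 7025 UMIs of the gene. The gene model of Fgfr2 shares exon sequence with Ctbp2 on the same strand through a readthrough transcript, and the effect on its counts was not tested.

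Fgfr1 (chr8:25513654-25575718, plus strand) was found at high levels in fibroblast-like cells, astroglia and late neuroblasts. Fibroblast-like cells had 468 CPM (352 to 609), from 55 UMIs in 31 cells, with 419 in Control and 494 in TBI. Astrocytes followed with 318 CPM (330 and 300), stem-like astroglia with 293 (297 and 283) and late neuroblasts with 234 (223 and 242), and no other member passed 100 CPM in neuroblasts. Late neuroblasts lay above early neuroblasts at 87.2 CPM, RG-like cells at 79.1 and NSC at 68.5, so the lineage cells were lower before the late stage than at it. Oligodendrocytes were lowest with 9.83 CPM.

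The ligand genes were highest outside the neuronal lineage. Fgf1 (chr18:38838673-38929472, minus strand) measured 137 CPM (113 to 165) in smooth muscle (169 in Control and 86.2 in TBI), 60.0 in astrocytes (66.3 and 50.5) and 55.3 in oligodendrocytes (51.6 and 57.7). Pericytes had 8.71 CPM, and the step from oligodendrocytes to pericytes was clear in both libraries. Fgf2 (chr3:37348346-37410108, plus strand) was sparse, with 134 UMIs in named cells. Its levels were 17.5 CPM in stem-like astroglia (10 UMIs), 15.5 in smooth muscle, 15.4 in pericytes (17.6 and 14.6) and 13.8 in astrocytes (13.6 and 14.2), which could not be told apart. RG-like cells had 0.747 CPM, and endothelial cells, microglia and Reln neurons had 0 UMIs. The gene model of Fgf2 shares exon sequence with Gm43439 on the same strand, and the effect on its counts was not tested. Fgf2 also overlaps the antisense gene Nudt6, which measured 6.17 CPM in astrocytes and at most 14.1 CPM in any type.

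Shares of cells with a UMI were taken after each cell was thinned to 2000 UMIs, which left 871 of the 1386 astrocytes, 1187 late neuroblasts and 1507 oligodendrocytes. Astrocyte clusters 9 and 13, described below, had median depths of 1620.5 and 1853.5 UMIs, so most of their cells were left out. Fgfr3 was at 103 and 385 CPM in these clusters, below the other astrocytes. The thinned shares thus describe the deeper astrocytes and not the whole type. Fgfr3 was detected in 63.1% of astrocytes (63.2% unthinned, median depths 3936 and 2841.5 UMIs), against 0.730% of oligodendrocytes (2.21% unthinned, 9186 and 8791 UMIs) and 0.674% of late neuroblasts. Fgfr2 was detected in 59.3% of oligodendrocytes (88.7% unthinned) and 14.5% of astrocytes (20.9%). Smo was found in 17.0% of astrocytes (19.3% unthinned) and 0.0664% of oligodendrocytes (0.835%), the type that gives its background. The remaining shares in astrocytes were 45.8% for Fgfr1, 33.6% for Ptch1, 18.5% for Gli3, 9.99% for Fgf1, 3.90% for Gli2, 2.30% for Fgf2 and 2.18% for Gli1, and 0 of 1187 late neuroblasts had a UMI of Gli1 or Gli2, which allows up to 0.253%. In stem-like astroglia the shares were 44.4% for Fgfr1, 42.2% for Ptch1, 27.8% for Fgfr3, 21.1% for Smo and 18.9% for Gli3. Many of these cells carried transcripts of both pathways. At least 1 Hedgehog member was detected in 56.4% of astrocytes, at least 1 of the 3 receptor genes in 76.8%, and both in 47.9%. Smo and Fgfr3 were detected together in 114 of the 871 astrocytes, against 93.5 if their detection were independent, and this difference was not tested.

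The astrocytes fell into 5 clusters that differed widely in these genes. Clusters 4, 8 and 25 had 16%, 20.7% and 12.5% of their UMIs from Malat1, and clusters 9 and 13 had 0.151% and 0.495%. Fgfr3 measured 789, 922 and 479 CPM in the first 3 clusters and 103 and 385 in clusters 9 and 13. Ptch1 measured 323, 452 and 152 CPM against 24.7 and 81.8, Fgfr1 399, 462 and 345 against 67.8 and 182, and Smo 105, 125 and 72.3 against 13.9 and 39. Gli1 was mainly in clusters 4 and 8, with 15.9 and 33.5 CPM, against at most 1.54 in the others. Receptor genes of both pathways thus had lower levels in both Malat1-poor clusters than in each of the other 3. The intervals of clusters 13 and 25 overlapped for Fgfr3 (334 to 441 and 430 to 532 CPM), Smo and Fgfr2, but not for Ptch1 and Fgfr1. The Malat1-poor clusters were also shallower, with medians of 1620.5 and 1853.5 UMIs per cell in clusters 9 and 13 against 4590, 2609 and 6318 in clusters 4, 8 and 25, and cluster 13 had 16.4% of its UMIs from mitochondrial genes, against 6.67% to 13.4% in the other 4. Their part in these levels was not tested. Fgf1 had the opposite order, with 84.8 and 85.5 CPM in clusters 9 and 13 against 49.2, 52.4 and 47.8. Both of the higher Fgf1 intervals overlapped those of clusters 8 and 25. The Malat1-poor clusters held 36.9% (33.3 to 40.6, Clopper-Pearson 95% interval) of Control and 46.9% (43.2 to 50.8) of TBI astrocytes. What this difference in makeup adds to the astrocyte values was not tested beyond the ratios without those clusters given below.

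**Figure D3:**
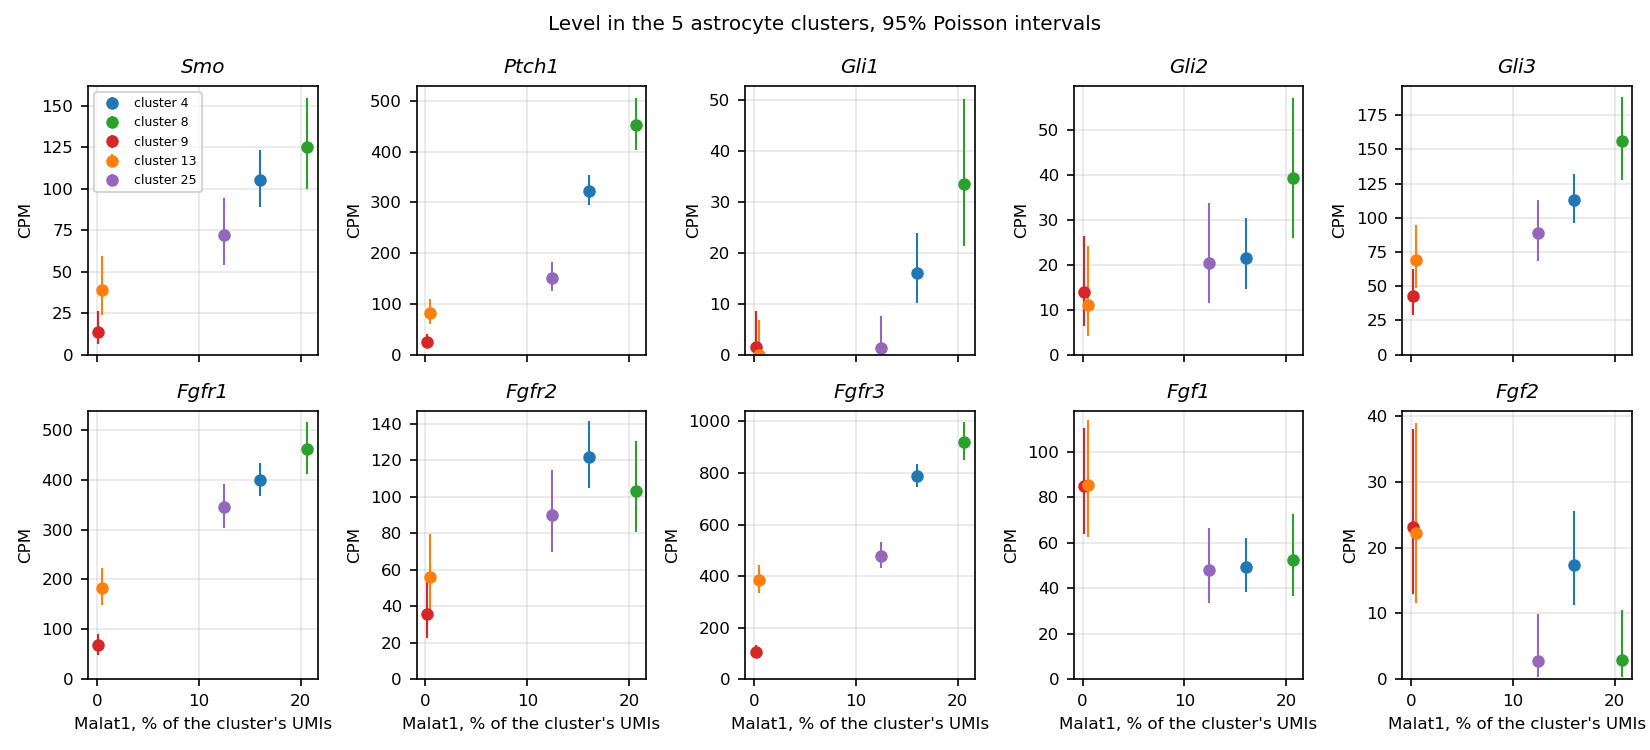
Level in CPM (vertical axes) of members in the 5 astrocyte clusters against the share of the cluster's UMIs from Malat1 (horizontal axis, %), with exact Poisson 95% intervals as bars. The receptor genes are lower in the clusters at 0.151% and 0.495% Malat1 (9 and 13) than in the others, and Fgf1 is higher there. The bars of clusters 13 and 25 overlap for Fgfr3, Smo and Fgfr2, and some bars of Fgf1 overlap.

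Genes with the most similar pattern were sought by the correlation of log2(CPM + 1) over 28 points, 14 types in each of 2 libraries, among 5632 genes. The points share libraries and depth, and the coefficients are a description. The leading genes were Clu (0.94), Slc6a11 (0.93) and Cldn10 (0.93) for Fgfr3, of which Slc6a11, a GABA transporter gene, was also an astrocyte marker. For Fgfr2 they were Gpr37 (0.91), Gas7 (0.83) and Clmn (0.80), and for Fgfr1 Paxbp1 (0.81), Nr2f1 (0.80) and Mtg2 (0.79). The Hedgehog receptor Ptch1 was led by Ahcyl1 (0.91), Nwd1 (0.87) and Glo1 (0.87), and Smo by Zeb1 (0.82), which was also an RG-like marker, Mmp14 (0.80) and Bcl2 (0.79). Plcd4 (0.93), Bmpr1b (0.90), a BMP receptor gene, and Scara3 (0.87) led for Gli2. Gm10561 and Ddo were shared by Gli1 (0.81 and 0.81, with Eci1 at 0.81) and Gli3 (0.89 and 0.83, with Sox1, a progenitor transcription factor gene, at 0.83). The ligand genes were led by Csrp1 (0.80), Endod1 (0.78) and Smim1 (0.77) for Fgf1 and by Hspa2 (0.86), Dmd (0.86) and Mfge8 (0.84) for Fgf2. Among the members themselves the coefficient was highest for Gli2 with Fgfr3 (0.77) and Gli1 with Gli2 (0.76), and lowest for Smo with Fgf1 (-0.37).

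The comparison of TBI with Control asks how these pathways stood 15 days after injury. Only 46 of the 140 pairs of a member and a cell type had at least 50 UMIs over both libraries and were compared. Of these, 4 pairs (8.70%) were past 1.5-fold, near the 7.81% of 81487 pairs over all genes, with 1 higher and 3 lower in TBI. The ratio was above 1 in 22 pairs and below 1 in 24.

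**Figure D4:**
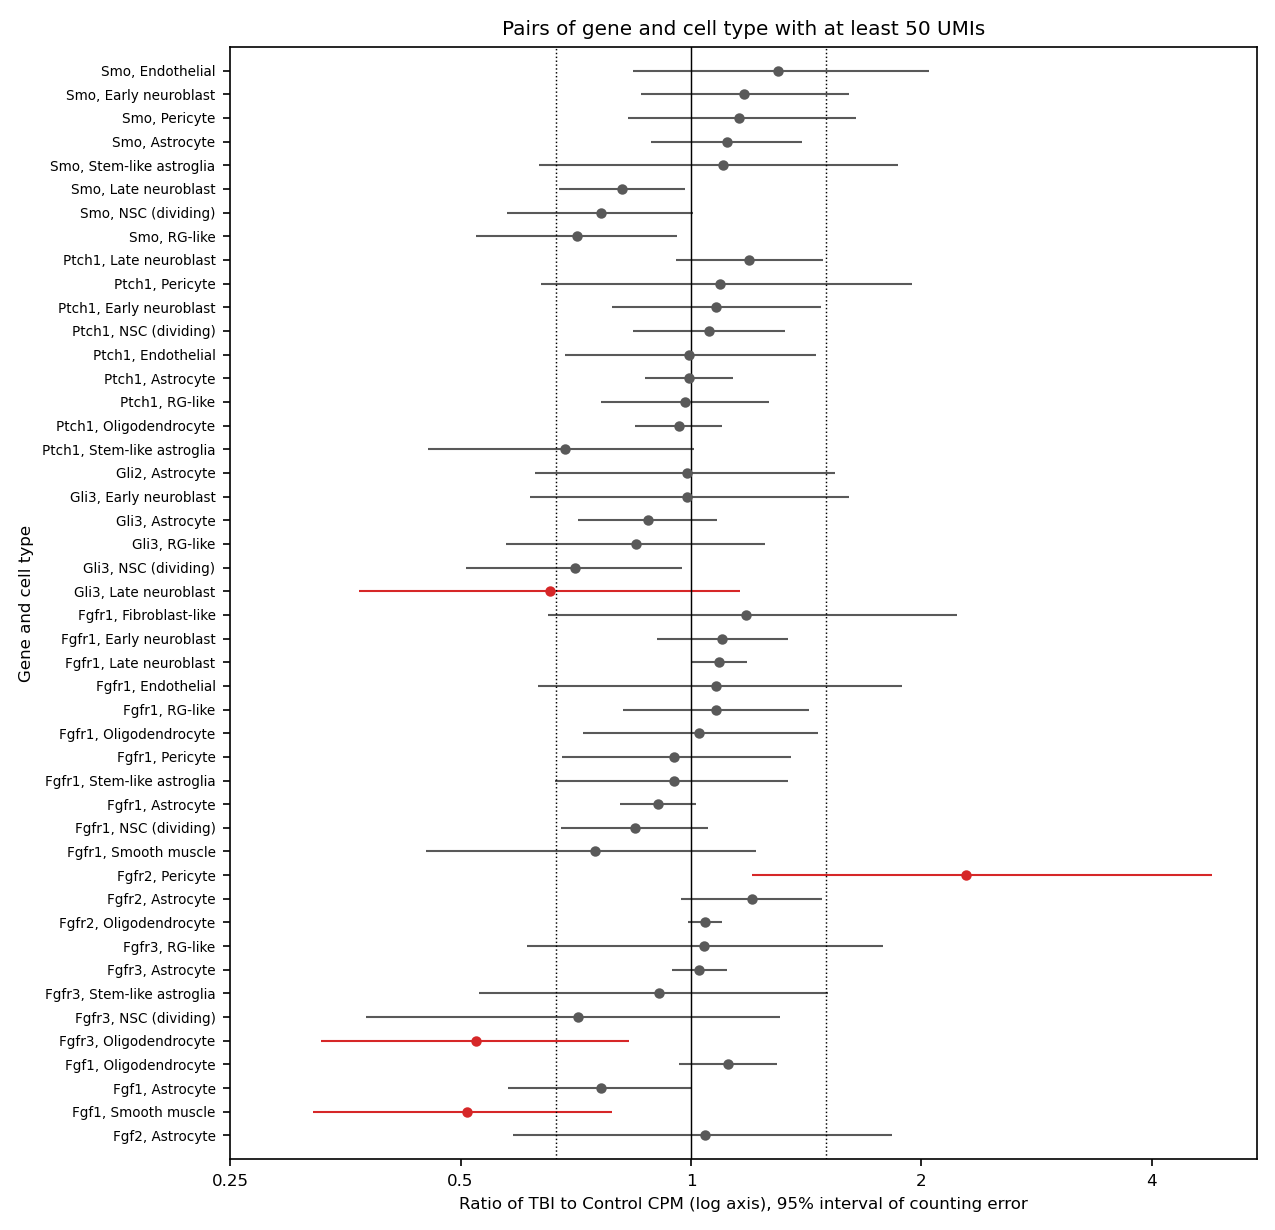
Ratio of TBI to Control (log axis) for the 46 pairs of a gene and a cell type with at least 50 UMIs, with exact conditional binomial 95% intervals as bars and lines at 1 and at 1.5-fold in either direction. Only 4 pairs lie past 1.5-fold, Fgfr2 in pericytes above and Fgfr3 in oligodendrocytes, Fgf1 in smooth muscle and Gli3 in late neuroblasts below.

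In astrocytes 0 of 9 measured members were past 1.5-fold, where 5.37% of all genes were. The ratio was 1.03 (0.944 to 1.11) for Fgfr3, 0.994 (0.870 to 1.13) for Ptch1, 0.907 for Fgfr1, 0.879 for Gli3 and 1.04 for Fgf2. The outermost values were 1.20 (0.971 to 1.48) for Fgfr2 and 0.762 (0.577 to 1.00) for Fgf1. Without the Malat1-poor clusters 9 and 13, Fgfr2 measured 98.4 CPM in Control and 127 in TBI, a ratio of 1.29 (1.02 to 1.62), and Fgf1 52.3 and 45.3, a ratio of 0.865. Within clusters 9 and 13 alone, Fgf1 measured 103 and 61.8 CPM, a ratio of 0.598 (0.381 to 0.923). Fgfr3 and Ptch1 had ratios of 1.07 and 1.06 without those clusters.

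In stem-like astroglia 0 of 4 members were past the limit (12.8% of all genes), and the widest value was Ptch1 at 0.684 (0.453 to 1.01). In NSC 0 of 5 were (5.45%), with a median log2 ratio of -0.39 over the members against 0.00 over all genes. In the other types compared, the median over the members ran from -0.69 in smooth muscle (2 members) to 0.24 in fibroblast-like cells (1 member). Gli3 (0.706, 0.509 to 0.972) had an interval below 1 in NSC, while that of Smo (0.762, 0.575 to 1.00) reached 1. Ptch1 was slightly higher in TBI NSC (60.1 and 63.5 CPM, 1.06, 0.839 to 1.33). Fgfr2, with 23 UMIs in Control and 6 in TBI, was not among the pairs compared. The NSC markers summed to a ratio of 0.890 and the stem-like astroglia markers to 0.866 in these cells. The pericyte markers summed to 8.48 CPM in Control and 86.7 in TBI NSC, and the OPC markers to 39.9 and 93.0. Of the 2 NSC clusters, cluster 19 held 80 Control and 109 TBI cells, and cluster 22 held 82 and 78. The part of these in the values was not tested. In RG-like cells 0 of 5 were past the limit (7.06%), with Smo at 0.710 (0.523 to 0.959). In late neuroblasts Smo was at 0.812 (0.672 to 0.982) and Fgfr1 at 1.09 (1.00 to 1.18). In early neuroblasts 0 of 4 members were past the limit (5.79%), in endothelial cells 0 of 3 (5.79%) and in fibroblast-like cells 0 of 1 (34.3%), and no member reached 50 UMIs in Reln neurons, OPC or microglia. Of the 8 types in which Smo was compared, it was lower in TBI in NSC, RG-like cells and late neuroblasts. It was higher in early neuroblasts (33.1 CPM in Control and 38.8 in TBI, 1.17, 0.861 to 1.61), endothelial cells (1.30, 0.840 to 2.04), astrocytes, stem-like astroglia and pericytes, and neither direction was tested.

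The single late-neuroblast pair past the limit (1 of 4, against 3.96%) was Gli3, 6.77 CPM in Control and 4.43 in TBI, a ratio of 0.655 (0.368 to 1.16) from 54 UMIs. These lay in 25 Control and 23 TBI cells with at most 2 UMIs each, and the interval held 1. Cluster 1, with 432 cells, had nearly equal marker scores for late (1.53) and early neuroblasts (1.52). Without it, 14 UMIs in Control and 11 in TBI gave 5.56 and 3.30 CPM, a ratio of 0.594 (0.244 to 1.41). Markers of stem-like astroglia summed to 416 CPM in Control and 321 in TBI late neuroblasts, a ratio of 0.773, and their part in the Gli3 value was not tested.

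In oligodendrocytes 1 of 5 members was past the limit (3.95% of all genes). Fgfr3 measured 7.93 CPM in Control and 4.15 in TBI, a ratio of 0.524 (0.328 to 0.831). Of its UMIs, 24 of 45 in Control and 23 of 36 in TBI were in cells called doublets, and without these cells 21 and 13 UMIs gave 0.411 (0.189 to 0.861). A single Control cell held 13 of the 45 Control UMIs. Cluster 23 had 15 UMIs in Control and 1 in TBI, and without it the levels were 6.21 and 4.83 CPM, a ratio of 0.778 (0.464 to 1.31) that was no longer past the limit. All 9 astrocyte markers were detected in oligodendrocytes and summed to 434 CPM in Control and 365 in TBI, a ratio of 0.841, and their part in the Fgfr3 value was not tested. Fgfr2 had a ratio of 1.04 in these cells (0.991 to 1.10), and Fgf1 one of 1.12.

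In pericytes 1 of 4 members was past the limit (9.83% of all genes). Fgfr2 measured 16.1 CPM in Control and 36.9 in TBI, a ratio of 2.29 (1.20 to 4.79). However, 72 of its 79 UMIs lay in cluster 40, which had 15 cells (2 Control and 13 TBI), all called doublets and carrying oligodendrocyte markers, with 405 CPM of Fgfr2. Without that cluster there were 1 UMI in Control and 6 in TBI (1.53 and 3.55 CPM). All 8 oligodendrocyte markers were detected in pericytes and summed to 2445 CPM in Control and 4248 in TBI. Gli3 in pericytes, below 50 UMIs with 45, was at 29.3 and 13.6 CPM, a ratio of 0.462 (0.246 to 0.877). All 9 astrocyte markers were detected in pericytes and summed to 672 CPM in Control and 262 in TBI, a ratio of 0.390, and their part in the Gli3 value was not tested.

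In smooth muscle 1 of 2 members was past the limit (20.0% of all genes). Fgf1 measured 169 CPM in Control and 86.2 in TBI, a ratio of 0.510 (0.321 to 0.788), with UMIs in 39 of 64 Control and 21 of 62 TBI cells. Both clusters of the type gave lower TBI values, 171 and 97.5 CPM in cluster 28 (0.570, 0.345 to 0.911) and 156 and 51.0 CPM in cluster 36 (0.327, 0.0748 to 1.13). The marker sums moved with it, since the 5 smooth muscle markers summed to 36504 CPM in Control and 25338 in TBI and the 7 pericyte markers to 3766 and 11351. The markers of the other types with high Fgf1 were also lower in TBI smooth muscle, with the 9 astrocyte markers at 591 and 40.04 CPM and the 8 oligodendrocyte markers at 1204 and 203. Their part in the Fgf1 value was not tested.

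The other genes of the pathways came from 9 lists with 85 genes beside the members, not picked by the direction of their values. Counts over a list include the members in it. Hedgehog ligand genes were sparse in the named cells, with 4 UMIs of Shh, all in OPC, 6 of Ihh and 19 of Dhh. Among the 8 ligand and release genes the highest levels were those of Scube1 (119 CPM in fibroblast-like cells) and Scube3 (48.8 in Reln neurons), secreted proteins that help release the ligand. Of the 6 measured Hedgehog receptor and co-receptor genes, 4 were highest in an astroglial type, namely Ptch1, Smo, Gas1 and Boc. Gas1, a co-receptor gene, reached 449 CPM in stem-like astroglia, and Hhip, whose product binds and withholds the ligand, 233 CPM in oligodendrocytes. Of the transducer genes 2 of 11 and of the cilium genes 0 of 8 were highest in astroglia, where 13.4% of all genes were. The highest levels of these lists were Gsk3b (576 CPM in late neuroblasts) and Csnk1a1 (542 in early neuroblasts), kinases that act on Gli proteins, and Ift20 (303 in pericytes) and Kif3a (274 in OPC), parts of ciliary transport. Of 7 measured target genes 2 were highest in astroglia, both of them members (Ptch1 and Gli1), while Ccnd1, a cyclin gene, reached 387 CPM in OPC.

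Among 18 FGF ligand genes, 4 had 0 UMIs and 3 had at least 50, namely Fgf1, Fgf2 and Fgf22. Fgf22 had 171 UMIs and was highest in oligodendrocytes with 8.92 CPM. With Fgf1 and Fgf2 aside, the highest levels were Fgf9 (20.7 CPM, 14 UMIs, in Reln neurons) and Fgf18 (17.0 CPM, 2 UMIs, in fibroblast-like cells). The Fgf18 value lies below the level that 3 counts would give in that type, 25.5 CPM. Of 10 measured FGF receptor and co-receptor genes 4 were highest in astroglia, namely the member Fgfr3, Fgfrl1, Sdc4 and Gpc5 (424 CPM in astrocytes). Gpc5 is a heparan sulfate proteoglycan gene like Sdc2 (629 CPM in pericytes). The adaptor list had 0 of 7 there, with Gab1 at 301 CPM in oligodendrocytes and Grb2 at 233 in microglia. Of 14 measured feedback and ETS target genes 4 were highest in astroglia, and the highest levels were Flrt2 (1225 CPM in fibroblast-like cells) and Etv1 (457 in oligodendrocytes).

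Between the libraries, the pairs of a list gene and a cell type with at least 50 UMIs were counted against 4.27% higher and 3.54% lower over all genes. For Hedgehog receptors 0 of 30 pairs were past 1.5-fold higher in TBI and 2 lower, for transducers 0 and 5 of 70, for targets 3 and 1 of 23, and for the cilium 1 and 0 of 55. For FGF receptors 7 of 58 pairs were higher and 4 lower, for adaptors 6 and 4 of 58, for feedback and ETS genes 7 and 2 of 73, and for FGF ligands 0 and 1 of 5. These include the member pairs given above, Fgfr2 in pericytes, Fgfr3 in oligodendrocytes and Fgf1 in smooth muscle. Other higher FGF receptor pairs were Sdc3 in NSC and OPC, Sdc2 in early neuroblasts and Reln neurons, Gpc5 in OPC and Sdc4 in microglia. Other lower ones were Sdc2 in stem-like astroglia and Fgfrl1 and Sdc4 in oligodendrocytes. Sdc2 and Sdc3 were highest in pericytes, whose markers were higher in TBI NSC, early neuroblasts and Reln neurons. Fgfr3, Fgfrl1 and Sdc4 were highest in astrocytes, whose markers were lower in TBI oligodendrocytes. The markers' part was not tested. The 3 higher target pairs were all Ccnd1, in NSC (30.05 CPM in Control and 59.0 in TBI, a ratio of 1.96, 1.48 to 2.61), in OPC (1.79) and in smooth muscle (62.2 and 253 CPM, 4.06, 2.67 to 6.31), and in microglia Ccnd1 was lower (0.545). The microglia joined cluster 30 (21 Control and 62 TBI cells) and cluster 34 (17 and 27), which had Ccl5, Lyz2 and Gzma among its leading genes. The part of this mix in the Ccnd1 and Sdc4 values of microglia was not tested. In OPC the 8 oligodendrocyte markers summed to 23292 CPM in Control and 5612 in TBI and the 8 OPC markers to 4741 and 6644. In smooth muscle the marker sums differed as given above for Fgf1, and in NSC as given above for the members there. The part of these sums in the Ccnd1 values was not tested. In astrocytes Boc, a co-receptor gene, measured 33.0 CPM in Control and 19.1 in TBI (0.580, 0.370 to 0.888) and Shc1, an adaptor gene, 18.1 and 27.7 (1.53, 0.987 to 2.37).

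The outermost ratios in the remaining types were those of the following genes. In the lineage, Gab1 (1.48) was highest and Smo lowest in RG-like cells, Sdc2 (1.89) and Flrt2 (0.726) in early neuroblasts, Cdon (1.42) and Flrt2 (0.528) in late neuroblasts, and Sdc2 (1.84) and Ptpn11 (0.670) in Reln neurons, while Gli3 was lowest in NSC. Gab1 was highest in oligodendrocytes, whose 8 markers summed to 147 CPM in Control and 662 in TBI RG-like cells. Sdc2 was highest in pericytes. The 7 pericyte markers summed to 7.52 CPM in Control and 466 in TBI early neuroblasts, and to 75.4 and 316 in Reln neurons. Of the early neuroblasts, 0 Control and 18 TBI cells were called doublets. The part of these in the values of RG-like cells, early neuroblasts and Reln neurons was not tested. In glia, they were Kif3a (1.21) and Spop (0.589) in stem-like astroglia, Ptpn11 (0.413) as the lowest in OPC, Gpc1 (1.33) and Sdc4 (0.459) in oligodendrocytes, and Sdc4 (2.79) as the highest in microglia. Sdc4 was highest in astrocytes, whose 9 markers summed to 434 CPM in Control and 365 in TBI oligodendrocytes. In microglia these markers summed to 248 and 374 CPM, and their part in the Sdc4 values was not tested. In vascular types, Spred1 (1.76) and Grb2 (0.795) were outermost in endothelial cells and Tulp3 (0.663) was lowest in pericytes, with Fgfr1 (1.18) and Csnk1a1 (0.696) in fibroblast-like cells. Members were the outermost list gene in NSC, RG-like cells, pericytes, smooth muscle and fibroblast-like cells.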

How the data were processed

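Per the labels, Cell Ranger 3.0.2 and GRCm38/mm10 were used by the authors on 10x 3′ libraries. Each deposited table holds raw counts of UMIs per gene and barcode, not normalized. Cells with at least 200 genes and a log UMI total no further than 3 scaled median absolute deviations from the centre of its library were kept, 24629521 UMIs in Control and 31503415 in TBI. Scrublet in scanpy 1.11.5 called 32 Control and 107 TBI doublets (1.05% and 2.12%), which were kept. Clusters were built in R 4.3.3 with Seurat 5.3.0 (2000 variable genes, 20 dimensions, resolution 3) and named by fixed markers, none of them a member. The gene positions are those of GENCODE on the same build. Sums, intervals and plots used python 3.11.15, numpy 2.4.6, scipy 1.17.1 and matplotlib 3.10.9.

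The labels list 4 animals per condition and the study's methods other numbers, and all were pooled, so cells cannot be assigned to animals and no p-value was computed. The measures were CPM per type, TBI to Control ratios with a limit of 1.5-fold in pairs with at least 50 UMIs, and shares of cells after thinning to 2000 UMIs. For a count of 0, the limit given is that of 3 counts. All members were named, with the 3 genes most like each in pattern (among genes with at least 100 CPM in a type and 50 UMIs in all), the 2 other genes with the highest level in each list, and per type the list genes with the highest and lowest ratio. Other genes were named after their values were seen: Shh, Ihh, Dhh, Fgf22, Nes and Nudt6. The members and lists were chosen with earlier results of these data known. On simulated counts with 2-fold changes, 93.3% of 193 changed genes in astrocytes and 96.9% of 192 in late neuroblasts passed the limit, and the intervals held the true ratio for 95.7% and 96.0% of genes. Of the unchanged genes, 3.01% and 1.51% passed the limit. Both libraries were drawn as Poisson counts from a single profile, without variation between cells or animals. The share of intervals that held the true ratio was thus set by the simulation and says nothing about such variation. Alternatives varied the cell filter, doublets, integration, resolution, naming, denominator, thinning depth, UMI minimum and fold limit.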

Additional observations from a re-analysis of the deposited data

How the results depend on the processing

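The count of members highest in an astroglial type stayed at 7 under every alternative run except a mitochondrial limit of 10%, which gave 8, with Fgfr1 then highest in astrocytes. With this limit, and with at least 2000 UMIs per cell, 13 types were compared, since types with under 30 cells were dropped. The fibroblast-like type, where Fgfr1 was highest, had 31 cells in the main setting. The members behind the 7 were not always the same, since with at least 2000 UMIs per cell and with cells named singly Fgfr1 was highest in astrocytes and Fgf2 in pericytes. The count of 4 pairs past 1.5-fold was 2 with no cell filter, 2 with the mitochondrial limit of 10%, 2 at a resolution of 1, 1 without doublets, 1 at a limit of 2-fold and 10 with a minimum of 20 UMIs. The share of astrocytes with Fgfr3 was 39.9% when cells were thinned to 1000 UMIs. Each of the other alternatives left the count of pairs within 1.5 times, including 4 added after seeing the data, which left out clusters 39 and 40 (3 pairs), 9 and 13 (4 pairs), 14 (4 pairs) or 23 (3 pairs). Fgf1 in smooth muscle was past 1.5-fold in all but the 2-fold setting, and Fgfr3 in oligodendrocytes in all but that, a mean over cells (0.797) and the removal of cluster 23 (0.778), and with doublets removed its ratio was 0.411 but its 34 UMIs were under the minimum. Gli3 in late neuroblasts fell under 50 UMIs in all 6 settings with new clusters and with cells named singly (26 to 42 UMIs), where its ratio was 0.568 with no cell filter, 0.594 with the mitochondrial limit, 0.662 without integration and 0.782 to 0.953 in the others. Fgfr2 in pericytes kept a ratio between 2.12 and 5.74 in every setting, but with 7 UMIs with no cell filter, with the mitochondrial limit, without doublets, at a resolution of 1 and without clusters 39 and 40, and 38 with cells named singly. New pairs past 1.5-fold were Smo in NSC and Fgf1 in astrocytes with at least 2000 UMIs per cell, Gli3 in NSC and Ptch1 in stem-like astroglia without integration, and Ptch1 and Fgfr1 in Reln neurons and Fgfr2 in stem-like astroglia with cells named singly. The cause of these moves was not tested. Of the levels 15 moved out of their interval and the others stayed within it. Of the ratios 59 stayed and 1 moved (Fgfr2 in pericytes with cells named singly), and of the shares of astrocytes with a UMI 6 stayed and 14 moved with the thinning depth. Single-library conditions, 3′ counts and few UMIs of Gli1, Gli2 and Fgf2 limit the values. No paired analysis was possible because the replicate numbers in the labels belong to animals that were pooled into 1 library per condition, so leaving out a replicate was not possible either.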

Other observations

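Values under 50 UMIs were not compared as pairs, and some of them came from very few cells. Fgfr1 in Reln neurons measured 90.5 CPM in Control and 7.30 in TBI, from 24 UMIs in 6 Control cells, up to 9 in a single cell, and 3 UMIs in TBI. In OPC all 9 UMIs of Fgfr2 were in a single Control cell. In smooth muscle Fgfr2 and Fgfr3 had 11 UMIs each in Control and 0 in TBI, and 6 of those of Fgfr2 and 10 of those of Fgfr3 were in cells called doublets. The astrocyte markers in smooth muscle summed to 591 CPM in Control and 40.04 in TBI and the oligodendrocyte markers to 1204 and 203. In NSC Fgfr2 had 23 and 6 UMIs, a ratio of 0.330 (0.110 to 0.833).

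Among the cells left without a name, cluster 20, nearest to astrocytes, had 32.6% of its UMIs from mitochondrial genes. It measured 181 CPM of Fgfr3, 248 of Ptch1, 286 of Fgfr1 and 41.4 of Gli1, the last from 11 UMIs. Its Ptch1 level lay within the range of the 5 astrocyte clusters, and its Gli1 level was above all 5. Cluster 24, nearest to RG-like cells, measured 41.9 CPM of Smo, 61.0 of Ptch1, 62.0 of Fgfr1 and 30.2 of Gli3.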
